A study of Bombus terrestris with 16 samples.

Results

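Carriers that move simple sugars across cell membranes were described in the gut of the buff-tailed bumblebee, Bombus terrestris. They were chosen by annotation, not by expression: a KEGG hit score of at least 100 and a KEGG description naming the facilitated trehalose transporter, solute carrier family 2 (SLC2) or a glucose transporter. The rule took 38 of the 10635 transcript records in the table. Of these, 26 were described as facilitated trehalose transporters, 8 as SLC2 member 8, 3 as SLC2 member 1 and 1 as SLC2 member 12. At a minimum score of 200 the rule would have kept 26 records, and with no minimum 39. The record just outside it, XM_003400468.1, scored 96.3, and the record just inside, XM_003400471.1, scored 109. The descriptions are homology matches, and no substrate was measured.

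Trehalose is the main blood sugar of insects. It is made largely in the fat body and crosses membranes through facilitated carriers that need no energy input, of which Tret1 was characterised in a midge and in other insects. SLC2 carriers are the related facilitated hexose transporters: in mammals member 1 is the widespread glucose carrier of the plasma membrane, member 8 sits mostly on internal membranes, and member 12 is another hexose carrier. In a nectar-fed bee, the gut epithelium is where glucose and fructose from the meal are taken up, after alpha-glucosidases have split sucrose.

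Each of 4 colonies, named K, L, S and T, gave guts for 3 exposed libraries and 1 control library. Exposed workers had met Crithidia bombi, a trypanosome parasite of the bumblebee gut, of genotype 068, 075 or 161. The design asks whether the response depends on the pairing of host colony and parasite genotype. Every one of the 16 libraries was a pool of 3 workers aged 7 d, killed 18 h after exposure, so each exposure had 4 libraries, 1 per colony, and the spread between single workers was not measured. Infection levels of these workers were not analysed here. Libraries are named here by colony and exposure, as in K control or S 075.

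Library totals ran from 8.47 to 9.29 M reads. A list of 66 gut epithelium markers, mostly trypsins, alpha-glucosidases and chitinases, summed to between 101850 counts per M reads (CPM) in K control and 191490 CPM in L 161. There were 3 libraries that stood apart from the rest over all genes. L 161 held the lowest value of 24.2% of the 8406 genes tested and the highest of 18.1%, K control held the highest of 14.5%, and K control and S 075 shared a set of genes described further on. For the tests below, values without them are given where they change a call, a sign or a count.

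The guts carried large amounts of sugar carrier RNA, and most of it came from 3 transcripts. Levels between genes are given in RPKM, reads per kilobase of transcript per M reads, where M stands for mega. The 38 carriers summed to 7705 ± 341 RPKM (SD, n = 16 libraries), which was 1.34% of the RPKM of all records. They took 2.46% ± 0.125 of the reads, between 2.19% in K control and 2.65% in L 068. The summed level averaged 7736 ± 322 RPKM in exposed guts (n = 12) and 7610 ± 429 RPKM in control guts (SD, n = 4), a difference smaller than either spread. By colony it ran from 7203 to 7642 RPKM in K, 7858 to 8313 RPKM in L, 7288 to 7597 RPKM in S and 7754 to 8086 RPKM in T. On this scale the L and T libraries all lay above the K and S libraries. On the share of reads L still lay above K and S, but T overlapped the other colonies. The shares were 2.19% to 2.49% in K, 2.52% to 2.65% in L, 2.36% to 2.47% in S and 2.39% to 2.57% in T. Between 31 and 38 of the 38 carriers had at least 1 read in a library, and all 38 did in K control, S 075 and S 161.

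**Figure D1:**
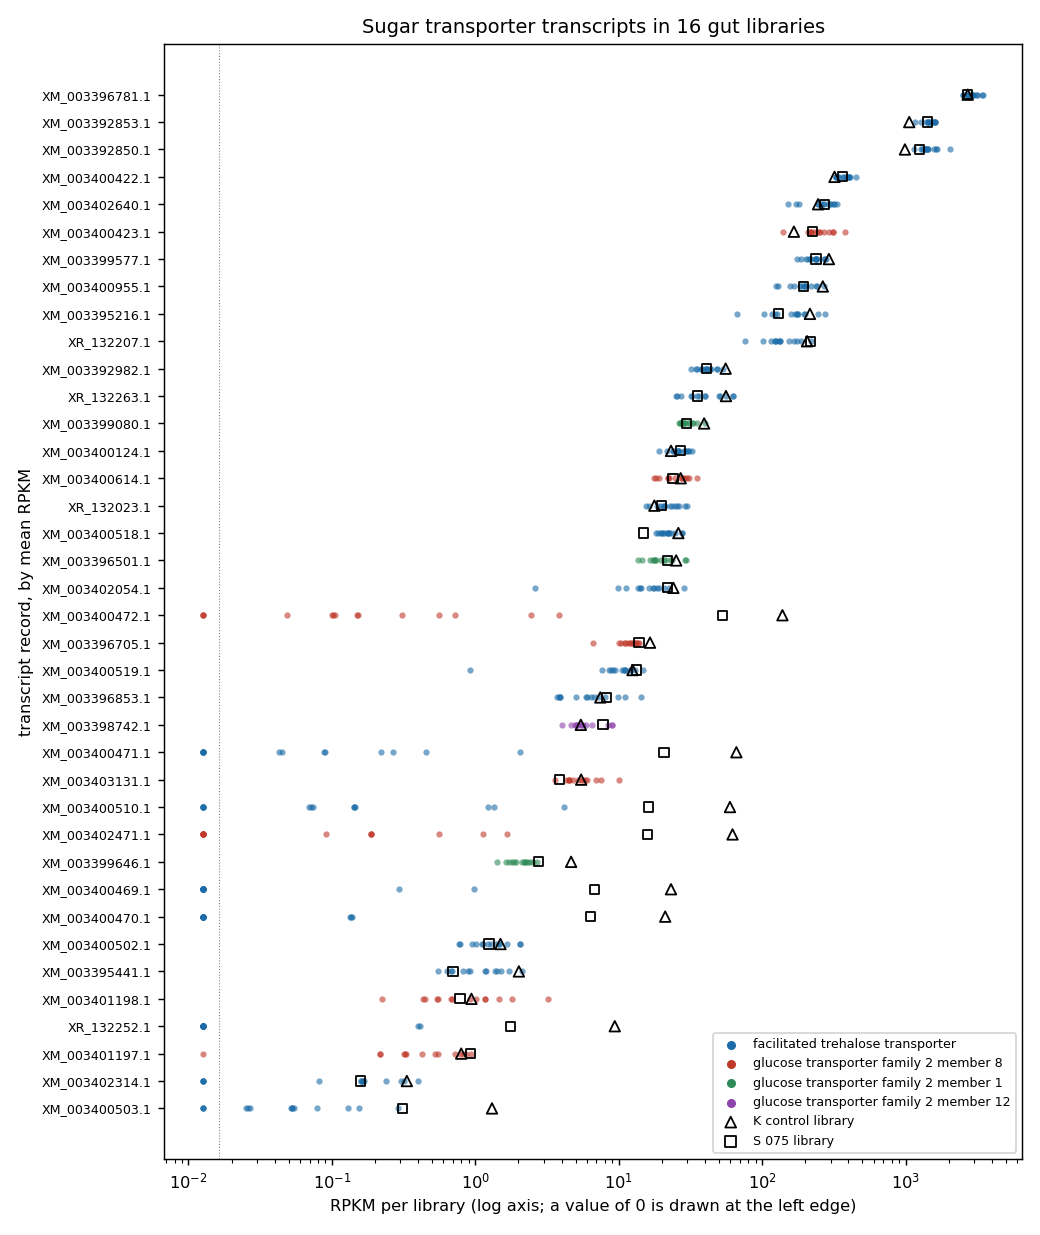
Deposited RPKM of each of the 38 carrier transcripts (rows, ordered by mean) in 16 libraries, on a log axis; colours give the KEGG description, and open triangles and squares mark the K control and S 075 libraries. The 3 highest carriers stand apart from the rest at the top in every library, while 7 carriers are high in K control and S 075 and near 0 in most other libraries.

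Carriers described as trehalose transporters held 95.2% of the summed RPKM, SLC2 member 8 carriers 4.004%, and the member 1 carriers 0.697%. The leading 3 records were all trehalose transporters. XM_003396781.1 averaged 2898 RPKM, which ranked 28 among the 10635 records, XM_003392853.1 averaged 1441 RPKM (rank 39), and XM_003392850.1 (LOC100647285) averaged 1413 RPKM (rank 40). Together they made up 74.6% ± 2.92 of the family's RPKM (SD, n = 16), with 66.1% in K control as the lowest share and 77.8% in L 068 as the highest. In colony S the share ran only from 71.8% to 73.0%. Their coefficients of variation over the 16 libraries lay between 9.99% and 16.6% in RPKM, against a median of 25.7% over the 33 tested carriers and 24.2% over all tested genes. After scaling by edgeR's TMM factors they were 13.3% for XM_003396781.1, 15.2% for XM_003392853.1 and 25.7% for XM_003392850.1, against medians of 25.4% and 22.7%, so the third was no steadier than the rest.

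For one gene between libraries, CPM values scaled by edgeR's TMM factors are used from here on, always in the order of colonies K, L, S and T. XM_003396781.1 had 7649, 9391, 6532 and 8513 CPM after 068, 7344, 8515, 7109 and 8736 CPM after 075, and 8763, 8936, 6755 and 7601 CPM after 161, against 6185, 8479, 6742 and 9360 CPM in control guts. The 4 groups overlapped widely, and colony S was the lowest after each genotype. XM_003392853.1 had 8087, 7829, 7898 and 7352 CPM after 068, 7988, 8546, 7115 and 5588 CPM after 075, and 7318, 9098, 6275 and 7939 CPM after 161, against 4569, 7830, 7658 and 8170 CPM in control guts. K control was the lowest library of all for this carrier, and the other 3 controls lay among the exposed libraries. XM_003392850.1 had 4836, 4092, 3864 and 3994 CPM after 068, 3858, 4980, 3479 and 3467 CPM after 075, and 4419, 7192, 2917 and 3959 CPM after 161, against 2389, 4798, 3676 and 4236 CPM in control guts. L 161 was the highest library and K control again the lowest.

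In edgeR's quasi-likelihood fit, exposed minus control differed by 0.06 ± 0.11 on the log2 scale (SE) for XM_003396781.1, 0.11 ± 0.15 for XM_003392853.1 and 0.17 ± 0.17 for XM_003392850.1. None of these passed the threshold, a Benjamini-Hochberg adjusted p of 0.05 over the 8406 genes tested. Without K control all 3 turned negative, at -0.02 ± 0.11 for XM_003396781.1, -0.07 ± 0.13 for XM_003392853.1 and -0.02 ± 0.16 for XM_003392850.1, so their sign rests on that library.

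**Figure D2:**
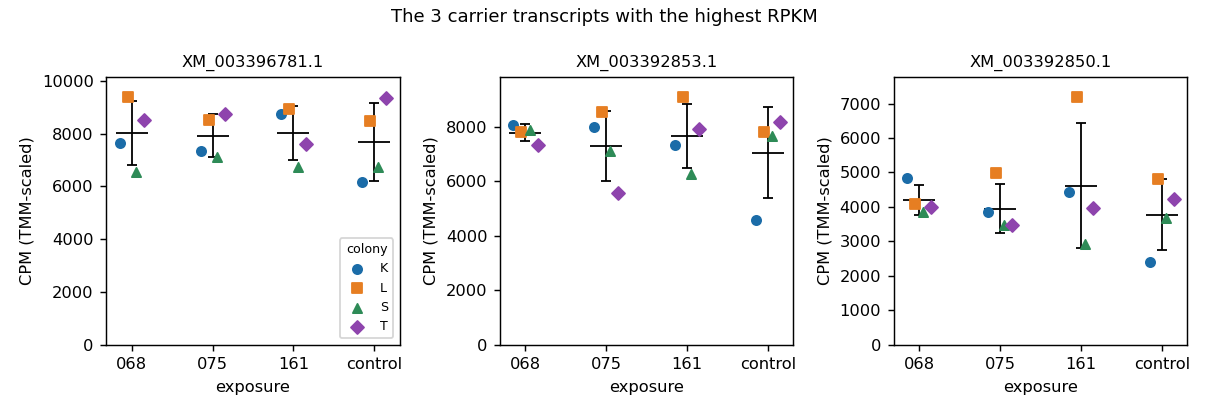
TMM-scaled CPM of the 3 carrier transcripts with the highest RPKM, by exposure on the horizontal axis; each point is 1 library, with the colony given by colour and shape, and bars show the mean and SD of 4 libraries. Exposed and control guts overlap in all 3, and the K control library is the lowest point in each panel.

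The next 7 carriers brought the share of the top 10 to 95.7% of the family's RPKM. Of these, 6 were trehalose transporter records: XM_003400422.1 (LOC100649031) averaged 370.5 RPKM, XM_003402640.1 (LOC100646248) 259.6 RPKM, XM_003399577.1 234 RPKM, XM_003400955.1 (LOC100644225) 198 RPKM, XM_003395216.1 166 RPKM and XR_132207.1 149 RPKM. The seventh, XM_003400423.1, was the highest SLC2 member 8 record, at 246 RPKM. The XR prefix marks a record that RefSeq holds as non-coding, as for 4 of the 38. XM_003400423.1 ran from 302 CPM in K 075, with K control next at 304 CPM, to 1013 CPM in L 161. XM_003395216.1 ranged widely too, between 189 CPM in L 161 and 622 CPM in K 075.

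The SLC2 carriers outside the top 10 were modest. The member 1 records, the closest by name to the mammalian plasma membrane glucose carrier, averaged 30.8 RPKM (XM_003399080.1), 20.6 RPKM (XM_003396501.1) and 2.29 RPKM (XM_003399646.1). XM_003396501.1 had the highest hit score of all carriers, 1472. The member 12 record, XM_003398742.1 (LOC100649888), averaged 6.11 RPKM. The 8 member 8 records ran from 0.546 to 246 RPKM, with a median of 8.85 RPKM. Records of near-identical copies or of one locus may have split reads between them: XM_003400502.1 and XM_003400503.1 share LOC100648799, and XM_003401197.1 and XM_003401198.1 share LOC100644462.

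Exposure to the parasite changed no carrier past the threshold. Of the 38 carriers, 33 passed the filter on low counts and were tested. In exposed against control guts, 0 carriers and 0 of 8406 genes (0%) were called by edgeR's quasi-likelihood test, and 0 carriers by DESeq2 and by limma-trend. At an unadjusted p under 0.05, 4 of 33 carriers passed, against 3.13% of all genes. Of the 33 carriers, 14 were higher in exposed guts by sign and 19 lower, and 44.1% of all genes were higher. The median carrier difference was -0.02 on the log2 scale, and that of all genes -0.02. For each genotype against control, 0 carriers and 0% of genes were called. By sign, 13, 13 and 11 of 33 carriers were higher after 068, 075 and 161, against 46.6%, 47.6% and 43% of all genes. Median carrier differences from control were -0.05, -0.08 and -0.10 for 068, 075 and 161, and the medians of all genes were -0.02, -0.01 and -0.04. These 3 comparisons share the same 4 control libraries, K control among them. Unadjusted, 5, 3 and 3 of 33 carriers passed for 068, 075 and 161, against 2.97%, 3.18% and 1.97% of genes. These counts include carriers near 0 in most libraries and highest in K control, described further on. XM_003402471.1 was one of them for exposed against control, for 068 and for 161, and XM_003400510.1 for 068. Without K control, 0 carriers were called in any of these tests. For exposed against control, 16 of 33 carriers were then higher by sign, against 52.2% of all genes, and 9 passed unadjusted, against 5.36%. For 068, 075 and 161, 17, 15 and 13 carriers were higher, and 5, 9 and 3 passed unadjusted, against 4.2%, 7.57% and 2.93% of genes. Without K control, S 075 and L 161 together, 31 carriers were tested and 0 were called. For exposed against control, 12 of 31 were then higher, against 51.4% of genes, and 7 passed unadjusted, against 9.64%. For 068, 075 and 161, 6, 7 and 5 of 31 passed unadjusted, against 6.4%, 10.9% and 4.79% of genes.

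A pair of carriers had the smallest p in exposed against control guts, in opposite directions. The trehalose transporter record XM_003402640.1 had 427, 605, 620 and 599 CPM after 068, 339, 582, 600 and 522 CPM after 075, and 434, 839, 631 and 563 CPM after 161, against 467, 715, 746 and 777 CPM in control guts. All 3 exposed libraries lay below their colony's control in K, S and T, and in L only L 161 lay above it. The log2 difference was -0.27 ± 0.10 for exposed against control and -0.41 ± 0.12 for 075 against control (edgeR, unadjusted p = 0.0144 and 0.00399). The adjusted p were 1.0 and 0.999.

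The SLC2 member 8 record XM_003400614.1 (LOC100642739) had 95.9, 71.2, 55.4 and 72.6 CPM after 068, 78.7, 60.5, 61.4 and 72.6 CPM after 075, and 72.9, 57.3, 65.9 and 78.3 CPM after 161, against 59.9, 50.7, 58.6 and 55.0 CPM in control guts. Of the 12 exposed libraries, 11 lay above their colony's control, and S 068 lay below. Its log2 difference was 0.31 ± 0.11 for exposed against control and 0.38 ± 0.13 for 068 against control (unadjusted p = 0.0111 and 0.0107). Neither passed after adjustment (edgeR, adjusted p = 1.0 and 0.999).

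**Figure D3:**
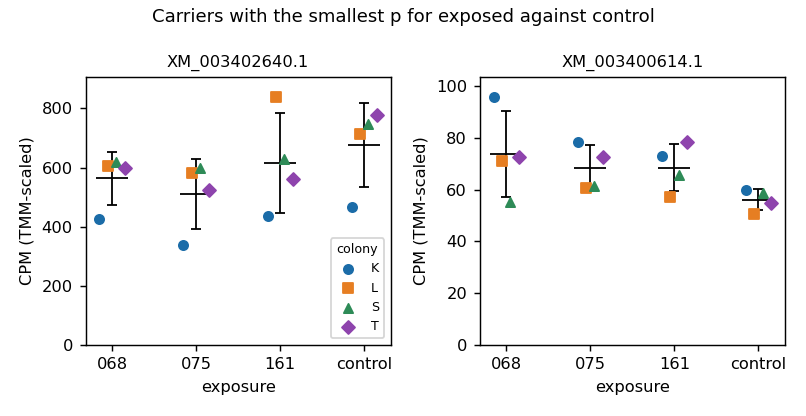
TMM-scaled CPM of XM_003402640.1 and XM_003400614.1, the carriers with the smallest unadjusted p for exposed against control, by exposure; each point is 1 library with its colony given by colour and shape, and bars show the mean and SD of 4 libraries. XM_003402640.1 lies lower and XM_003400614.1 higher in most exposed libraries than in the control of the same colony, and colony K is low for XM_003402640.1 in every group.

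Other carriers led a single comparison. XM_003401198.1 (LOC100644462), an SLC2 member 8 record, had 1.14, 2.32, 2.25 and 6.38 CPM after 068, against 1.58, 1.16, 0.850 and 0.487 CPM in control guts. K 068 was below K control, and the difference was 1.48 ± 0.54 on the log2 scale. XM_003395441.1 (LOC100642244), a trehalose transporter record, had 5.14, 2.13, 2.50 and 2.34 CPM after 075, against 6.23, 3.48, 4.36 and 5.48 CPM in control guts, a log2 difference of -0.76 ± 0.31. Each 075 library lay below its own colony's control, although the ranges overlapped. XM_003400955.1 had 789, 556, 628 and 450 CPM after 161, against 800, 905, 554 and 791 CPM in control guts, a log2 difference of -0.35 ± 0.15. Only in colony S was the 161 library the higher one. All of these had an edgeR adjusted p of 0.999.

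The 3 parasite genotypes were not told apart by any carrier. An F-test among 068, 075 and 161 called 0 carriers and 0% of genes, and DESeq2 and limma-trend called 0 carriers. Unadjusted, 0 of 33 carriers passed, against 1.61% of genes, and without K control 5 did, against 2.76%. Without K control, S 075 and L 161 together, 0 of 31 tested carriers passed unadjusted, against 2.5% of genes. The smallest p belonged to the trehalose transporter record XR_132023.1, with 31.3, 36.6, 42.0 and 41.9 CPM after 068, 33.7, 29.6, 28.3 and 36.2 CPM after 075 and 29.98, 28.0, 21.0 and 34.7 CPM after 161 (edgeR, unadjusted p = 0.0565).

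Between colonies, 1 abundant trehalose transporter differed. XM_003402640.1 had 427, 339, 434 and 467 CPM in the 068, 075, 161 and control guts of colony K, against 522 to 839 CPM, with a median of 613 CPM, in the 12 libraries of the other colonies. The 4 K libraries lay below all 12 others, which holds for 0.119% of tested genes and for no other carrier. In the deposited RPKM the colonies met, with 151 to 245.6 RPKM in K and 244.7 to 333 RPKM in the others. The log2 difference between colony K and the mean of the other colonies was -0.64 ± 0.10 (edgeR quasi-likelihood test, adjusted p = 0.0115). In that comparison 30 of 8406 genes were called (0.357%), 11 of them lower in K (0.131%). The F-test over the 4 colonies called 39 genes (0.464%), and XM_003402640.1 was the only carrier among them (adjusted p = 0.0460). This F-test call was close to the threshold. It was lost with DESeq2 size factors in edgeR, with no count filter, and in 15 of the 16 fits that left out a single library, where the adjusted p ran up to 0.193. It was also lost without K control, S 075 and L 161 together (adjusted p = 0.0771). The difference for colony K kept its sign and size when single libraries were left out, from -0.69 to -0.60 on the log2 scale, with an adjusted p of 0.0658, 0.102 and 0.0700 without K 068, K 075 and K 161. Without K control, S 075 and L 161 together it was -0.55 (adjusted p = 0.0328).

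Colonies L, S and T against the mean of the others had 0 carriers called by edgeR, against 0.107%, 0.25% and 0.143% of genes. Without adjustment the F-test over colonies passed 16 of 33 carriers, against 10.2% of all genes, and the counts were 7, 10, 11 and 3 of 33 for K, L, S and T against 7.41%, 12.9%, 9.55% and 5.53% of genes. The SLC2 member 12 record XM_003398742.1 was the closest to the threshold in colony S and was chosen for mention after its values were seen. It had 24.2, 22.7, 23.9 and 26.6 CPM in the 068, 075, 161 and control guts of colony S, against 12.03 to 21.0 CPM in the other colonies. No S library overlapped the others, which holds for 0.345% of tested genes and for no other carrier. Its log2 difference was 0.58 ± 0.13 (edgeR, adjusted p = 0.125). DESeq2 called it (adjusted p = 0.0225), and so did edgeR without K control (adjusted p = 0.0390).

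**Figure D4:**
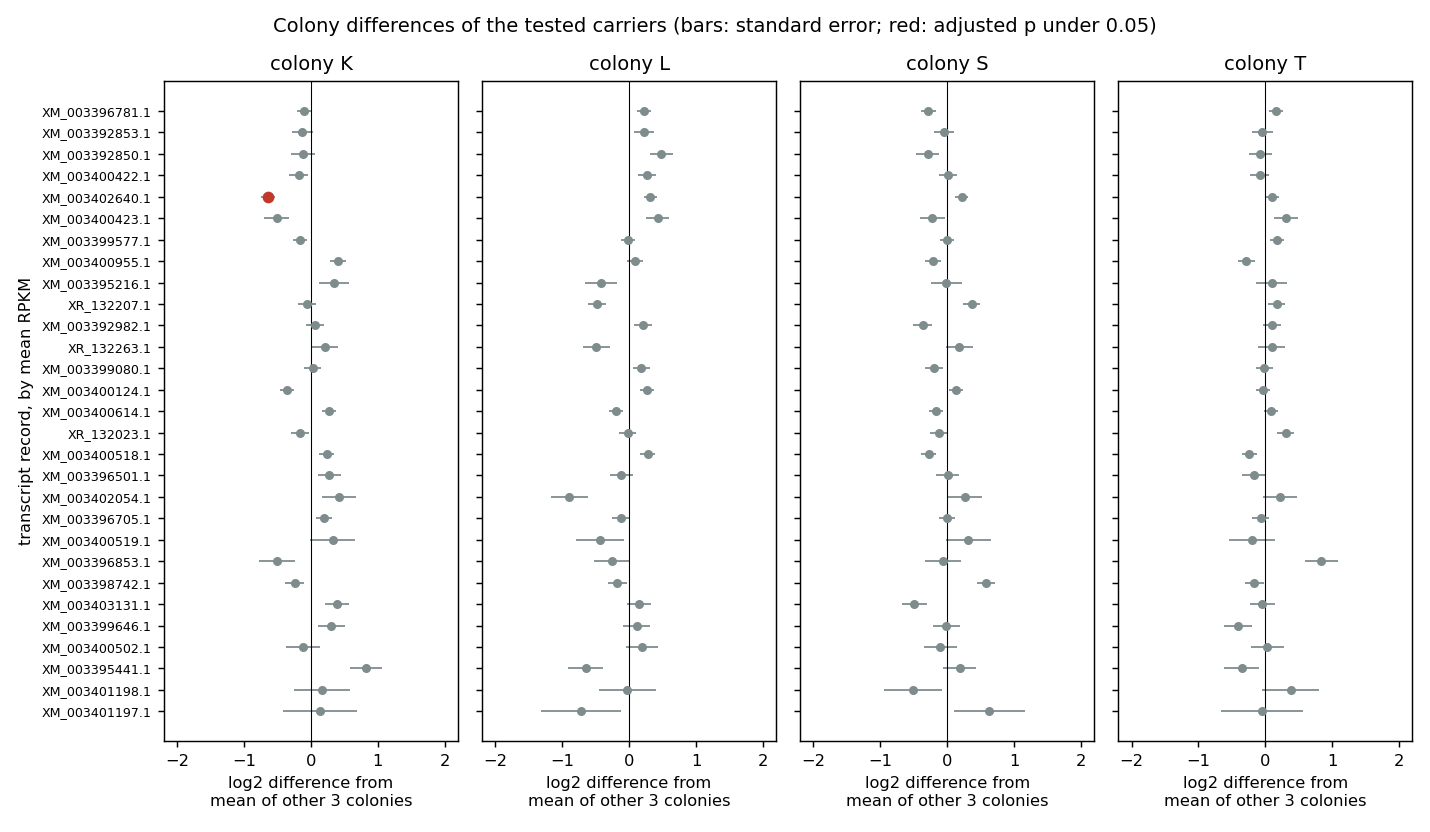
Log2 differences of 29 tested carriers between each colony and the mean of the other 3 colonies, from edgeR's quasi-likelihood fit; points are estimates, bars are standard errors, and rows are ordered by mean RPKM. The only carrier past the threshold (red) is XM_003402640.1 in colony K, at -0.64; the 4 tested carriers that were high in K control and S 075 are left out because they are near 0 in most libraries.

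A separate set of carriers was near silent in most guts and abundant in 2 libraries. XM_003400472.1, an SLC2 member 8 record, had 255 CPM in K control and 113 CPM in S 075. In the other 14 libraries its median was 0.291 CPM and its highest value 7.99 CPM, in S 068. The other exposed guts of colony K held 0.228 CPM (068), 0 CPM (075) and 0.251 CPM (161). The limit that a count of 0 allows was 3 counts, or 0.297 to 0.414 CPM depending on the library, counting error only, so these K values were below the level that a count of 0 allows. In K control, 99.7% of the transcript's length was covered by reads.

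The same profile was seen in 6 more carriers. XM_003400471.1 (LOC100644861) had 141 CPM in K control, 51.1 CPM in S 075 and at most 4.95 CPM elsewhere. XM_003400510.1 had 78.6 CPM in K control, 24.5 CPM in S 075 and at most 5.75 CPM elsewhere, in S 161. XM_003402471.1 (LOC100644539), another SLC2 member 8 record, had 62.8 CPM in K control, 18.5 CPM in S 075 and at most 1.91 CPM elsewhere. The rest fell below the count filter and were not tested. XM_003400469.1 (LOC100644497) had 37.7 CPM in K control, 12.7 CPM in S 075 and no read in 12 of the other 14 libraries. XM_003400470.1 had 29.2 CPM in K control and 10.2 CPM in S 075, and XR_132252.1 had 13.5 CPM in K control and 2.94 CPM in S 075. Except for XM_003400472.1 and XM_003402471.1, all were described as trehalose transporters.

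XM_003400471.1, XM_003400469.1 and XR_132252.1 had no read in any of the 3 exposed K libraries. Set against the floor of 3 counts in those libraries, they were at least 375-fold, 100.1-fold and 36.0-fold higher in K control. If mates of a pair were counted separately, which the many even low counts leave possible, the floor is 6 counts and the bounds are 187-fold, 50.1-fold and 18.0-fold. In a pool of whole guts, more cells of a type and more RNA per cell cannot be told apart.

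**Figure D5:**
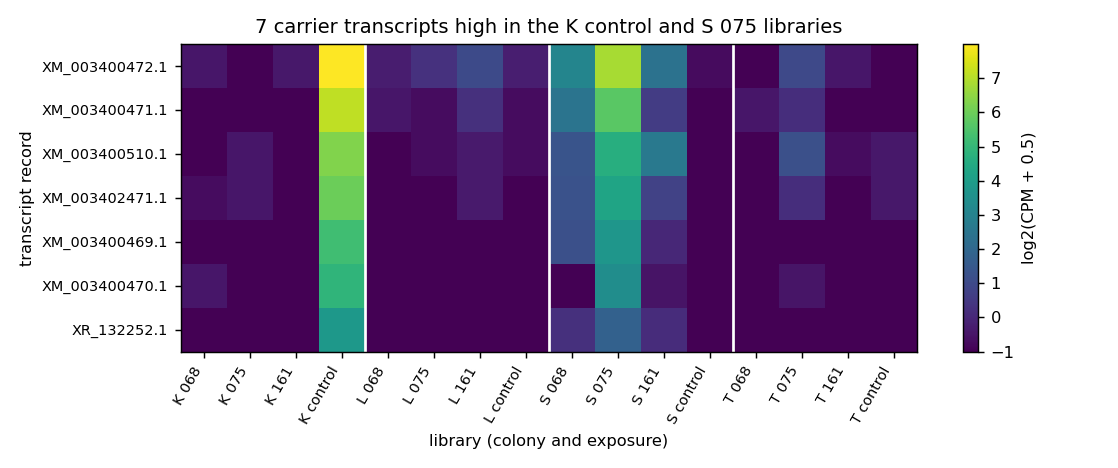
Log2(CPM + 0.5) of the 7 carriers with high values in K control and S 075, in 16 libraries grouped by colony with the control at the right of each block. All 7 are highest in K control and second in S 075; S 068 and S 161 hold low but detectable levels of most of them.

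The set was picked after the values were seen, by a rule applied to every record: both K control and S 075 above all other libraries and at least 10 times their mean. It held 7 of the 38 carriers (18.4%), against 63 of all 10635 records (0.592%). These 7 were weak matches, with hit scores from 109 to 178. At a minimum score of 200 none of them would have counted as a carrier. Of these 63, 31 had a KEGG hit score of at least 100, of which the carriers were 22.6%. The record just below the score minimum, XM_003400468.1, was also among the 63, with 56.1 CPM in K control and 15.99 CPM in S 075. Summed over the 7 carriers, K control held 618 CPM and S 075 held 233 CPM, against a median of 0.560 CPM in the other 14 libraries. Next came S 068 with 19.4 CPM, S 161 with 14.02 CPM, T 075 with 4.78 CPM and L 161 with 2.76 CPM. S control held 0.106 CPM. In colony K the control library was therefore the high one, and in colony S the 3 exposed libraries were.

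A fit of colony by exposed state was run over all genes, in which the exposed libraries within a colony served as replicates. It called 140 of 8406 genes (1.67%) and 3 of the 33 carriers: XM_003400472.1 and XM_003400510.1 (edgeR quasi-likelihood F-test, adjusted p = 0.0247 for both) and XM_003402471.1 (adjusted p = 0.0402). XM_003400471.1 did not pass in edgeR (adjusted p = 0.0535), but DESeq2 (adjusted p = 0.00161) and limma-trend (adjusted p = 0.0313) called it. Each colony had 1 control library, so these calls rest on the single K control pool, and they give no support beyond the K control values that chose the set. Without it, colony K leaves the contrast and the fit compares only colonies L, S and T. That fit called none of the 3 carriers and 0 genes, but it cannot test a difference in colony K. Without S control, colony S leaves the contrast in the same way. The adjusted p were then 0.132 for XM_003400472.1, 0.149 for XM_003400510.1 and 0.360 for XM_003402471.1. The calls also ended without K 068, K 075, K 161 or L 075, at adjusted p between 0.0507 and 0.114, and for XM_003402471.1 without L 068, T 068 or T 075, at 0.0607 to 0.0779. DESeq2 called XM_003400510.1 (adjusted p = 0.0182), did not call XM_003402471.1 (adjusted p = 0.210) and gave no adjusted p for XM_003400472.1.

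The choice of the set largely fixes how its carriers correlate. The pairwise Pearson correlations of log2(CPM + 0.5) lay between 0.906 and 0.986, with a median of 0.966, over 16 libraries. Over the other 14 libraries the correlations ran from 0.0779 to 0.942, with a median of 0.834 on values near the floor. Several of their genes are also neighbours in the genome, as ordered in a RefSeq gene table of assembly iyBomTerr1.2. LOC100644497 and LOC100644539 are adjacent, and with LOC100644861 and LOC100648799 they are 4 of 11 consecutive genes. LOC100648799, whose record XM_003400502.1 had 2.76 to 8.23 CPM in all libraries, was not part of the set. Its second record, XM_003400503.1, had 4.75 CPM in K control and 1.31 CPM in S 075, against at most 1.11 CPM elsewhere, with reads over 15.8% of its length in K control. The table matched 19 of the 38 carriers, at 17 loci, so the place of the others was not analysed here.

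Markers of other cell types were summed in the same libraries. The gut epithelium list was lowest in K control, at 101850 CPM. It stood at 159360 CPM in S 075, against 131280 to 191490 CPM in the other 14. Its members went both ways. The alpha-glucosidase XM_003402177.1 had 28261 CPM in K control and 59396 CPM in S 075, against 44010 to 71906 CPM. The aminopeptidase N record XM_003403243.1 had 91.2 and 48.6 CPM in K control and S 075, against 2.57 to 5.63 CPM. The trypsin record XM_003400228.1 had 63.7 and 24.9 CPM there, against 0 to 3.83 CPM. The muscle list, 29 records such as myosin heavy chains, held 2579 CPM in K control and 2901 CPM in S 075, against 2810 to 4666 CPM in the others. The hemocyte list, 14 collagen IV and laminin records, summed highest in K control, at 222 CPM. It held 207 CPM in S 075 and 147 to 216 CPM in the others. Here too members went both ways in K control. The laminin record XM_003393188.1 had 124 CPM there and 90.0 CPM in S 075, against 69.3 to 108 CPM in the other 14. The laminin record XM_003396443.1 had 6.23 CPM in K control, just below the others, but 20.5 CPM in S 075, against 6.27 to 11.8 CPM. XM_003393523.1 had 3.76 CPM in K control, also just below, and 6.20 CPM in S 075, against 3.78 to 11.7 CPM. The nervous list of 22 records held 717 CPM in K control and 725 CPM in S 075, against 717 to 1082 CPM, and the Malpighian tubule list of 11 held 1626 and 1625 CPM in K control and S 075, against 1550 to 2186 CPM. The fat body list matched 1 record, apolipoprotein B, with 5.34 CPM in K control and 17.5 CPM in S 075, against 1.59 to 9.11 CPM. A further 2 lists were added after the values were seen: 15 cell division records summed to 222 CPM in K control and 155 CPM in S 075, against 70.5 to 124 CPM, and 3 germ line records, all described as aubergine, to 21.9 and 14.9 CPM in K control and S 075, against 7.92 to 20.3 CPM. The part of these cell types in the carrier values was not tested.

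The low end of the family held 2 more untested records besides the set. XM_003402314.1 stayed between 0 and 0.627 CPM, and XM_003400503.1 is given above. Among tested carriers, L 161 held the lowest value of 6 and the highest of 7, or 18.2% and 21.2%, against 24.2% and 18.1% of all genes. K 075 held the lowest value of 4 and the highest of 7, or 12.1% and 21.2%, against 4.95% and 5.06% of all genes. The trehalose transporter record XM_003400519.1 (LOC100650901) had 3.31 CPM in L 161, against 24.1 to 39.6 CPM in the other 15 libraries. XM_003402054.1, of the same description, had 5.24 CPM there, against at least 17.1 CPM elsewhere. XM_003400518.1 (LOC100650785), whose gene is adjacent to LOC100650901 in the gene table, had 68.2 CPM in L 161, within the range of 37.1 to 70.6 CPM of the other libraries. These 3 were named after their values were seen.

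Genes around the carriers in sugar metabolism were counted on lists matched by description. No gene of 7 lists was called by edgeR in exposed against control guts, between colonies, or for colony by exposed state. The lists held 3 tested genes of trehalose synthesis and breakdown, 11 of sucrose, maltose and starch hydrolysis, 22 of glycolysis, 10 of glycogen and UDP-glucose, 11 of polyols and other hexoses, 12 of insulin and energy sensing, and 4 sugar carriers outside the rule. Unadjusted, 1, 2, 1, 0, 0, 0 and 0 of them passed for exposed against control, in that order, against 3.13% of all genes, and the list medians lay between -0.13 and 0.12 on the log2 scale.

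Trehalase splits trehalose into glucose, and its most abundant record, XM_003400805.1 (LOC100646078), averaged 5604 ± 927 CPM in exposed guts (n = 12) and 3704 ± 362 CPM in control guts (SD, n = 4). Its log2 difference was 0.58 ± 0.15, which did not pass (edgeR, adjusted p = 1.0). Trehalose 6-phosphate synthase, which makes the sugar, averaged 667 ± 151 CPM in exposed guts and 670 ± 67.8 CPM in control guts, a log2 difference of -0.03 ± 0.15 whose sign turned in several fits with a library left out. The most abundant alpha-glucosidase, XM_003402177.1 (LOC100646687), averaged 55205 ± 9581 CPM in exposed guts and 46433 ± 13351 CPM in control guts, with a log2 difference of 0.28 ± 0.17. The highest sugar carrier outside the rule, XM_003394448.1 (LOC100649324) of the SWEET family, solute carrier family 50, averaged 521 ± 70.9 CPM in exposed guts and 493 ± 72.7 CPM in control guts. Its log2 difference was 0.08 ± 0.12, and -0.035 without K control, S 075 and L 161. At 215 RPKM on average it would rank among the 10 most abundant carriers. Aldolase, XM_003402721.1, the most abundant listed gene of glycolysis, averaged 1894 ± 277 CPM in exposed guts and 1889 ± 287 CPM in control guts.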

How the data were processed

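Poly(A) RNA from pooled guts was sequenced on an Illumina HiSeq after random priming, per the labels' protocols. TopHat 1.9 is named in the submitters' processing notes. How reads were counted, and on which build and annotation, is not given in the sources used here. The deposited table gives for each record, per the file headers, a read count, an RPKM and the percent of the transcript covered. Deposited counts sum to the library total of the header in 16 of 16 libraries, and all 151539 of 151539 nonzero deposited RPKM cells follow from count, length and total (relative tolerance 1e-06). Coverage percent is the authors' value. Of counts from 1 to 9, 69.1% were even, as would arise if a fragment's mates counted separately, and low counts may then stand for fewer fragments (not tested).

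The test on these counts was run in R 4.3.3 with edgeR 4.0.16, using TMM scaling (factors 0.812 to 1.19), the filterByExpr filter (8406 genes kept), and quasi-likelihood F-tests with exposure and colony as factors (9 residual degrees of freedom), or colony by exposed state (8). The common biological coefficient of variation was 0.282. Tests were adjusted over all genes by the Benjamini-Hochberg method. The labels pair libraries by colony, so colony was the replicate block. Deviations of same-colony libraries from their exposure mean correlated with a median r of 0.126 over 24 pairs (-0.292 to 0.466), against a median of -0.0743 over 72 pairs of different colony and exposure. P-values measure spread between pools, 1 per colony and exposure. The fit with exposure and colony as factors counts any effect of their pairing as part of that spread. It therefore cannot test whether the response depends on the pairing of colony and parasite genotype. The code was tested on simulated data. No 2 libraries agreed within sampling noise (chi-square per gene 29.3 to 108).

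Symbols came from a RefSeq gene table of assembly iyBomTerr1.2. Carriers named with values were those past the threshold, the 10 with the highest mean RPKM, the 2 with the smallest p of each exposure or genotype test, those below the filter, and others said to be chosen after their values were seen. Of each list, up to 4 genes could be named. The carriers and lists were chosen with earlier results of these data known. Alternatives were DESeq2 1.42.0, limma-trend (limma 3.58.1), DESeq2 size factors in edgeR, no count filter, a mean RPKM of at least 1, summed records of a locus, no colony block, and libraries left out.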

Additional observations from a re-analysis of the deposited data

Results flagged for a closer look

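Dixon's test at the 95% level was applied to 22 named carriers within each of the 4 exposures, 88 groups of 4 libraries in all. It marked 29 values. By chance about 1 in 20 groups would be marked. That rate does not apply to the carriers of the set high in K control and S 075. They were chosen by those libraries, so their marks there largely follow from the choice. Where the other libraries of an exposure had no read, any read was marked. Most marks belong to that set and XM_003400503.1, and their values are given here in CPM. XM_003400471.1, also of the set, was not among the 22. Against the other libraries of its exposure, K control was far above for XM_003400472.1 (255), XM_003400510.1 (78.6), XM_003402471.1 (62.8), XM_003400469.1 (37.7), XM_003400470.1 (29.2), XR_132252.1 (13.5) and XM_003400503.1 (4.75). S 075 was likewise far above the other 075 libraries for XM_003400472.1 (113), XM_003400510.1 (24.5), XM_003402471.1 (18.5), XM_003400469.1 (12.7), XM_003400470.1 (10.2), XR_132252.1 (2.94) and XM_003400503.1 (1.31). Among 068 libraries, S 068 stood apart for XM_003400472.1 (7.99), XM_003400510.1 (2.03), XM_003402471.1 (1.91), XM_003400469.1 (1.80) and XR_132252.1 (0.675). Among 161 libraries, S 161 stood apart for XM_003400510.1 (5.75), XM_003400469.1 (0.504) and XR_132252.1 (0.605).

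Single libraries stood apart within their exposure for 7 other carriers. XM_003402640.1 was low in K 068 (427 CPM), XM_003392853.1 was low in K control (4569 CPM) and XM_003399577.1 was low in S 161 (334 CPM). XM_003395216.1 was low in L control (284 CPM). XM_003400422.1 and XM_003400423.1 were high in L 161 (2222 and 1013 CPM), and XM_003395441.1 was high in K 075 (5.14 CPM). The test compares colonies within an exposure, so the level of a whole colony can be marked. Over all its libraries, colony K held 339 to 467 CPM of XM_003402640.1 and 5.14 to 7.03 CPM of XM_003395441.1.

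The difference between exposed and control libraries varied by colony for XM_003400472.1, XM_003400510.1 and XM_003402471.1 (edgeR, colony by exposed state, adjusted p = 0.0247, 0.0247 and 0.0402). All 3 calls rest on the single K control pool, and without it colony K cannot be part of the contrast. They also ended without S control, which takes colony S out of the contrast in the same way. The calls therefore do not separate exposure from single control pools.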

How the results depend on the processing

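With the replicate block dropped (no colony term), 0 genes and 0 carriers were called in the exposure and genotype tests, as with it. Those tests also gave 0 genes and 0 carriers in every fit that left out a library or a colony. DESeq2 called 5 genes for 075 against control and 0 carriers; without K control, S 075 and L 161 together edgeR called 10 genes and 0 carriers there. Of the single genes refitted, these turned direction in some fit, none of them called there. XM_003402471.1 in 161 against control, -5.39 on the log2 scale with all libraries, was 2.28 without K control and 2.34 without colony K, and ran from -7.51 (without S control) to 2.34 over all fits that left out libraries. For exposed against control, the left-out values ran from -0.032 to 0.15 for XM_003396781.1, -0.080 to 0.24 for XM_003392853.1 and -0.032 to 0.29 for XM_003392850.1, lowest without colony K. They ran from -0.15 to 0.037 for trehalose 6-phosphate synthase (XM_003396060.1) and from -0.0032 to 0.21 for the SWEET carrier XM_003394448.1. Without K control, S 075 and L 161 together the values were -0.053, -0.12 and -0.14 for those 3 carriers, in that order, and -0.035 for XM_003394448.1.

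For the F-test over colonies, 39 genes and 1 carrier were called. DESeq2 called 233 genes. DESeq2 size factors in edgeR and no count filter both left 0 carriers, with an adjusted p of 0.0577 and 0.0549 for XM_003402640.1. Without the 3 libraries, 119 genes and 0 carriers were called. Leaving out single libraries gave 24 (without T 068) to 128 genes (without K control) and 0 to 4 carriers. The 4 carriers without K control were XM_003400471.1, XM_003400472.1, XM_003400510.1 and XM_003402471.1.

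For colony K, 30 genes were called, 71 by DESeq2, 54 without the 3 libraries, and 8 (without K 075) to 36 with 1 library left out, with 0 to 1 carriers. For colony L, 9 genes were called, 109 genes and 2 carriers (XM_003402054.1 and XR_132207.1) by DESeq2, and 5 to 17 genes with 1 library left out. For colony S, 21 genes were called, 79 genes and 1 carrier by DESeq2, 32 genes by limma-trend, 104 genes and 2 carriers (XM_003400472.1 and XM_003400510.1) without the 3 libraries, and 10 (without S 068) to 170 genes (without K control) and 0 to 5 carriers with 1 left out. For colony T, 12 genes were called, 51 by DESeq2, 28 without the 3 libraries and 9 to 16 with 1 left out.

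For colony by exposed state, 140 genes and 3 carriers were called, 320 genes by DESeq2, 0 genes and 0 carriers without the 3 libraries, and 0 (without K control) to 250 genes (without L 161) and 0 to 4 carriers with 1 left out. Without K control, alone or with other libraries, colony K is not part of that contrast. The cause of these shifts was not tested. With 1 library per colony and exposure, a difference of one carrier in one pool cannot be set against replicate error, and carriers under about 3 counts per library are not told apart from 0.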
